A study of Schmidtea mediterranea with 4 samples.

Results

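Nonribosomal peptide synthetases (NRPS) are large enzymes that join amino acids or related molecules without a ribosome. In *Drosophila*, the NRPS-like enzyme Ebony couples β-alanine to monoamines. The planarian *S. mediterranea* has *nrps*, which the study placed in somatic cells of the reproductive organs, and a paralog that it placed in the gut and used as a specificity control, *nrps* (gut) (SMESG000014974.1). The planarian gut is a branched tube lined by phagocytic cells, which take up food, and by secretory goblet cells.

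Cells high in *nrps* (gut) were selected by its own counts, as the cells with at least 3 unique molecular identifiers (UMIs, each marking 1 captured transcript) of this gene. They numbered 269 of 48216 cells. Because the counts of this gene chose the cells, its level in them is a description only, and the tests concern other genes. For comparison, each member was matched with up to 3 cells of the same library that had 0 UMIs of the gene and lay within 20% of the member in total UMIs. The files pair no gene numbers with names, so genes other than those the study gives by number are identified by number only, and their functions are not known here. No gut gene other than *nrps* (gut) could be matched by number, and the gut origin of the cells could therefore not be checked with markers. No genome coordinates entered the comparisons.

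The cells came from animals of the sexual strain, fed on calf liver and then starved for a week, as 2 anterior and 2 posterior libraries. The labels give no treatment or genotype for either group. Each library pooled cells of 15 to 20 animals after dissociation and sorting with Hoechst and propidium iodide. The labels give the cell type of every library as reproductive organs. The labels do not say whether the libraries of 1 region came from separate dissociations, so *P* values concern only these libraries. They cannot be taken to measure a spread between dissociations. For members against matched cells, they rest on how the difference within a library varied across libraries, with variances estimated jointly over genes.

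The number of cells per library ranged from 6721 to 19080, and that of UMIs from 11513838 to 72094246. The median cell had 1208 and 1218 UMIs in the anterior libraries and 3297.5 and 2394.5 in the posterior ones. All levels below are CPM, the UMIs of a gene scaled to all UMIs of the same cells. Of the cell barcodes, 227 occurred in more than 1 library. Among members, 2 carried such a barcode, and no barcode was a member in more than 1 library.

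The anterior libraries held 12 and 16 members, and the posterior libraries 75 and 166. Members had a median of 4 UMIs of *nrps* (gut) in anterior 1, posterior 1 and posterior 2 and of 3 in anterior 2, with a highest count of 14. They were deep cells, with median totals of 3509, 2693.5, 7169 and 6012.5 UMIs in anterior 1, anterior 2, posterior 1 and posterior 2. Just inside the threshold, 124 cells had exactly 3 UMIs of the gene. Just outside it, 437 cells had 2.

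Most members belonged to a single population. Clustering that left out *nrps* (gut), *nrps*, *LamA* and *klf4l* gave 54 clusters, and 182 of the 269 members (67.7%, exact binomial 95% interval 61.7% to 73.2%) fell in cluster 25, which held 540 cells. A further 34 fell in cluster 10, with 1339 cells. The remaining 53 were scattered over 18 other clusters, with at most 10 in any of these. In anterior 1, anterior 2, posterior 1 and posterior 2, cluster 25 held 10, 13, 43 and 116 members, which was 83.3%, 81.2%, 57.3% and 69.9% of the members of each library. The members outside both clusters came almost entirely from posterior libraries, at 1, 0, 20 and 32 cells.

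The share in cluster 25 followed the count of the gene. It was 0.354% of cells with 0 UMIs, 3.78% of those with 1, 20.4% of those with 2, 47.6% of those with 3, 67.2% of those with 4, all 29 cells with 5, and 96.4% of the 55 cells with 6 or more. The cells on either side of the threshold were thus mixed, and a count of 5 or more marked cluster 25 almost alone. Only 2 of the 84 members with at least 5 UMIs lay elsewhere.

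**Figure D1:**
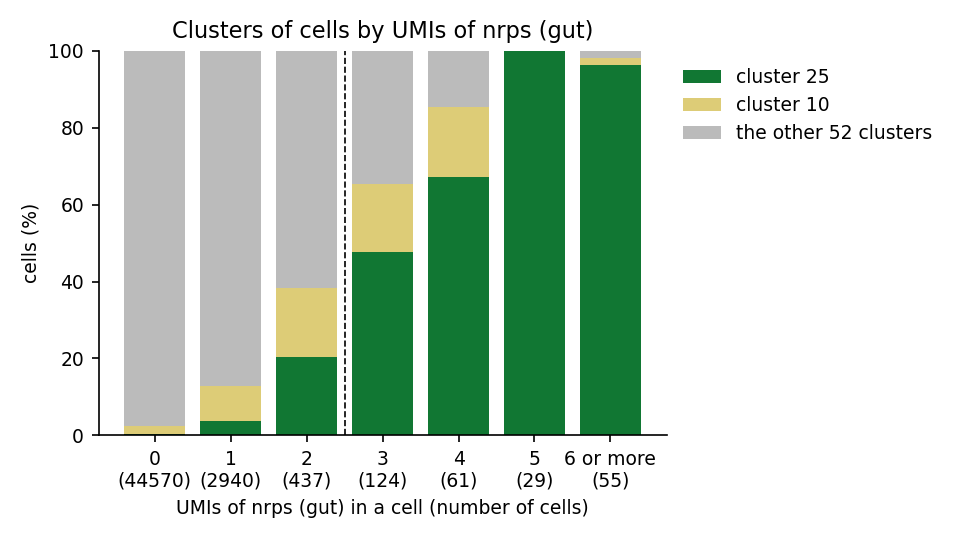
Share of cells (%, y axis) in cluster 25, cluster 10 and the other 52 clusters, by the UMIs of *nrps* (gut) in the cell (x axis, number of cells in brackets). The dashed line marks the threshold of 3 UMIs; cluster 25 held 20.4% of the cells with 2 UMIs, 47.6% of those with 3 and all 29 of those with 5.

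Over all its cells, cluster 25 expressed *nrps* (gut) at 627 CPM (exact Poisson 95% interval 592 to 663, 1189 UMIs). Cluster 10 followed at 141 CPM (130 to 154). Among the other 48 clusters of at least 100 cells the level lay between 1.82 and 28.8 CPM, with a median of 17.0. In each library the order was the same. Cluster 25 stood at 595, 533, 581 and 670 CPM in anterior 1, anterior 2, posterior 1 and posterior 2, cluster 10 at 136, 159, 120 and 159 CPM, and the remaining clusters together at 18.5, 22.3, 21.8 and 21.4 CPM. These intervals and those of shares cover counting error only.

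Depth was next held constant by thinning each cell to 1000 UMIs and leaving out shallower cells. After thinning, 48.2% of cells in cluster 25 (43.4% to 53.0%), 11.4% in cluster 10 (9.58% to 13.5%) and 1.86% of cells in the other clusters (1.72% to 2.01%) still had a UMI of the gene. Before thinning the shares were 70.7%, 28.3% and 6.23%. All 23 cells that kept 3 or more UMIs after thinning were in cluster 25. The 53 members outside both clusters had a median of 12673 UMIs, whereas all cells of those clusters had a median of 1926. A total of 3273 of the 5001 UMIs of the gene lay in these other clusters. Whether they came from the cells or from free RNA in the droplets was not tested.

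**Figure D2:**
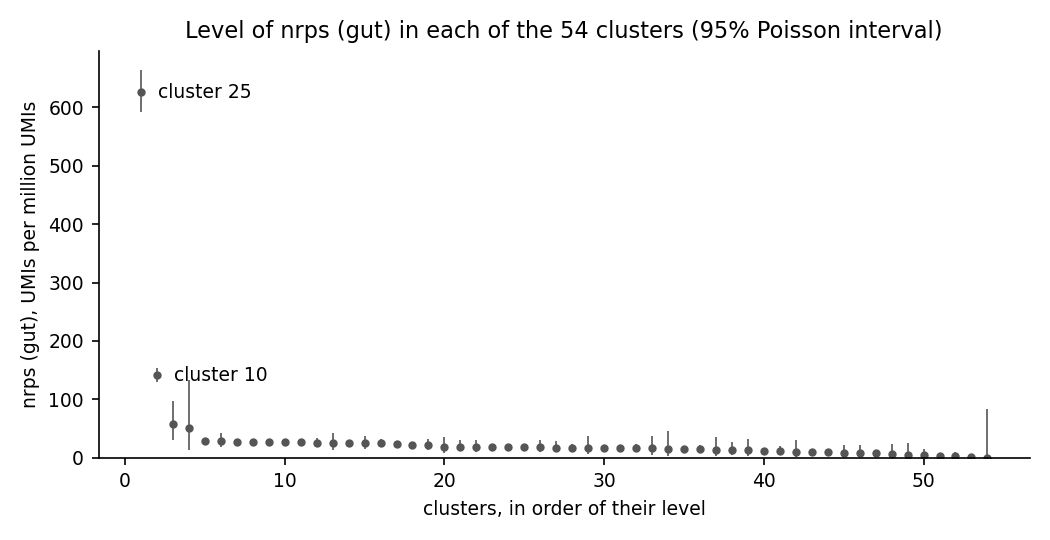
Level of *nrps* (gut) (y axis, CPM) in each of the 54 clusters, ordered by level (x axis), with exact Poisson 95% intervals. Cluster 25 stood at 627 CPM and cluster 10 at 141 CPM, above the other 48 clusters of at least 100 cells, at 1.82 to 28.8 CPM.

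The cells of cluster 25 also shared genes that the selection had not used. Among its 158 cells with 0 UMIs of *nrps* (gut), 261 genes reached at least 50 CPM and at least 8 times their level in the cells with 0 UMIs outside clusters 25 and 10. These leading genes made up 18.4% of all UMIs of those 158 cells, 19.7% in the 182 members of cluster 25, and 0.468% in the cells outside both clusters with 0 UMIs. Cluster 10 carried these genes at a lower level, at 3.56% of UMIs in its cells with 0 UMIs and 4.87% in its members. Of the 83 leading genes of cluster 10 found by the same limits, 78 were among the 261 of cluster 25 (94.0% of the shorter list and 29.9% of the longer one). The leading genes define the clusters, and these shares are descriptions.

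The scattered members did not carry this set of genes to a comparable degree. In the 51 of the 53 that had partners of the same cluster and depth, the 261 genes made up a median of 0.243% of UMIs per cell, and in their 145 partners with 0 UMIs of *nrps* (gut) a median of 0.219%. Over their pooled UMIs the shares were 0.516% in these members and 0.339% in the partners. The highest value of a cell was 7.91% among these members and 7.33% among the partners, and the lowest among members of cluster 25 was 7.07%.

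The *nrps* of the reproductive organs was not detected in the members. They had 0 UMIs of *nrps* (SMESG000023215.1) among 1952709 UMIs, which allows up to 1.54 CPM by a floor of 3 UMIs (exact Poisson 95% upper limit 1.89 CPM). The gene stood at 1.76 CPM over all cells, so that members were not shown to lie below the other cells. *LamA* (SMESG000056013.1), a laminin gene which the study used as a marker of somatic gonadal cells, had 0, 0, 4 and 10 UMIs in members of anterior 1, anterior 2, posterior 1 and posterior 2, in 8 cells, or 7.17 CPM against 12.8 CPM in matched cells. *klf4l* (SMESG000031008.1), used by the study as a marker of germline stem cells, had 3 UMIs in 1 posterior member. In the 182 members of cluster 25 these genes had 0, 3 and 0 UMIs. None of these genes passed edgeR's filter on low counts. Without that filter none passed the test against matched cells (edgeR adjusted *P* = 0.79, 0.60 and 0.90 for *nrps*, *LamA* and *klf4l*). For *LamA*, the pooled level in matched cells was 1.79 times that in members (exact 95% counting interval 1.003 to 3.43). That interval covers counting error only.

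Members were then compared with matched cells, with UMIs summed per library and *nrps* (gut) left out. The sums held between 44408 and 1194737 UMIs for members and between 133230 and 3580282 for matched cells. Of 6555 genes tested, 1016 were higher in members (15.5% of those tested) and 604 lower (9.21%) by edgeR's quasi-likelihood test with the library as a block, at an adjusted *P* of 0.05. Without a posterior library, both the counts and the number of genes that passed the filter fell. Without posterior 1, 452 genes were higher and 118 lower of 2894 tested, and without posterior 2 338 and 93 of 2780. Without anterior 1 the counts were 1285 and 1330 of 9438, and without anterior 2 1117 and 1505 of 9314. Among the higher genes, 886 were higher in all 4 libraries, and 107 rose by more than 4 on the log2 scale. Among the lower genes, 555 were lower in all 4 libraries. The same libraries made the calls, so these counts of a shared direction are descriptions only. The balance of the directions depended on scaling. Library sizes in place of TMM gave 802 higher and 1028 lower genes, and placed the median log2 fold change of all genes at -0.27 in place of -0.07.

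The genes higher in members took up a large part of their transcriptome. They made up 42.6%, 45.3%, 25.7% and 30.3% of the UMIs of members in anterior 1, anterior 2, posterior 1 and posterior 2, and 10.4%, 13.4%, 8.77% and 10.3% in matched cells. These shares follow from the same counts as the calls. In cells with 0 UMIs of *nrps* (gut), 261 of the 1016 genes had their highest level of 50 clusters in cluster 25 (25.7%), beside 4.45% of all genes tested. None of the 604 lower genes did, and 21 of the higher genes (2.07%) peaked in cluster 10, beside 70 (1.07%) of all genes tested. Most members and few matched cells lay in cluster 25, so a tilt toward it follows from the make-up of the sums. These counts are descriptions only.

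Genes were named by the size of the change among those called that moved the same way in every library and reached 50 CPM in every library sum of the higher group. The first was SMESG000066414.1. In anterior 1, anterior 2, posterior 1 and posterior 2 it stood at 18977, 23284, 9409 and 12321 CPM in members and at 14.9, 1749, 8.01 and 35.5 CPM in matched cells. Every member sum lay above every matched sum. The high matched value of anterior 2 came from a sum in which 3 of 48 matched cells were in cluster 25, whereas no matched cell of the other libraries was. The log2 fold change was 8.19 (SE 0.94, edgeR adjusted *P* = 1.1e-05). All 182 members of cluster 25 had a UMI of this gene, at 23640 CPM, as did 98.7% of the cluster's cells with 0 UMIs of *nrps* (gut), at 20796 CPM. In cluster 10 the members had 903 CPM, and the 53 scattered members had 45.4 CPM, beside 41.3 CPM in the cells of those clusters with 0 UMIs.

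The second was SMESG000066413.1, at 2839, 3558, 1001 and 1399 CPM in members and 0, 105, 0 and 3.07 CPM in matched cells, in the same order of libraries. Its log2 fold change was 8.11 (SE 0.70, edgeR adjusted *P* = 6.7e-07). It too was higher in members in 4 of 4 libraries.

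The first 2 genes that fell were almost absent from members. SMESG000050488.1 had 0, 0, 0 and 2 UMIs in members of anterior 1, anterior 2, posterior 1 and posterior 2 and 10, 27, 398 and 234 UMIs in matched cells, a ratio of levels of 112 over the pooled sums (exact 95% counting interval 30.8 to 924), with a fitted log2 fold change of -6.58 (SE 0.48, edgeR adjusted *P* = 1.7e-07). Its highest levels were in clusters 41 and 23, at 1409 and 1018 CPM. SMESG000043660.1 had 0, 0, 1 and 1 UMIs in members and 8, 14, 322 and 233 in matched cells, a ratio of 96.3 (26.5 to 797) and a fitted log2 fold change of -6.36 (SE 0.42, edgeR adjusted *P* = 7.8e-08). It peaked in the same 2 clusters. How many matched cells lay in clusters 41 and 23 was not counted, and the cause of these differences was not tested.

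**Figure D3:**
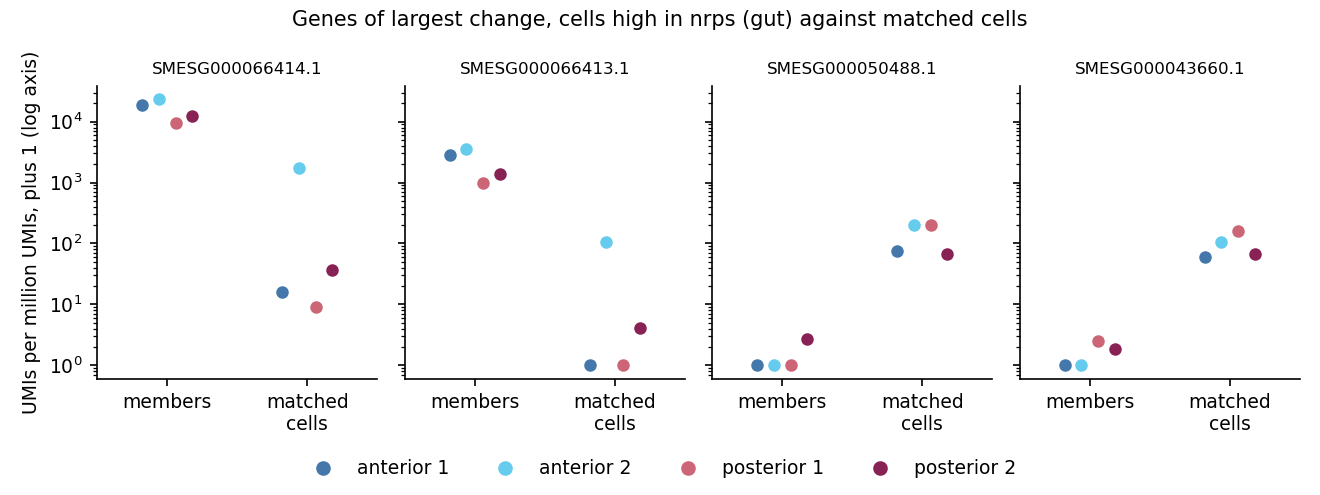
Levels of the genes with the largest changes (y axis, CPM plus 1, log axis) in members and matched cells, 1 point per library. All 4 member sums lay above all 4 matched sums for SMESG000066414.1 and SMESG000066413.1, and below them for SMESG000050488.1 and SMESG000043660.1.

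Members expressed fewer genes per cell than cells of the same depth. The median member had 1580, 1386, 2610 and 2321 genes in anterior 1, anterior 2, posterior 1 and posterior 2, and the median matched cell 1853, 1474, 2977 and 2719. The mean difference was -281.5 genes (SD 140, n = 4), lower in 4 of 4 libraries (2-sided exact permutation test of paired values, *P* = 0.125, the smallest that 4 libraries allow). The 10 most abundant genes took up 10.3%, 10.2%, 7.94% and 8.24% of the UMIs of members and 6.05%, 5.80%, 6.17% and 5.65% of those of matched cells. Without the members of cluster 25 the difference turned, to 154.9 genes more in members (SD 122, n = 4, exact permutation test *P* = 0.25).

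The 2 kinds of member were therefore also fitted apart, a choice made after the data were seen. Members of cluster 25 alone gave 1014 higher genes among 3547 tested (28.6%) and 938 lower (26.4%). Members outside it gave 158 higher genes among 7102 (2.22%) and 386 lower (5.44%), in a fit without anterior 2. With all 4 libraries the counts were 100 and 103, over 4231 genes, and DESeq2 without anterior 2 gave 45 and 186. Anterior 1 and anterior 2 held only 2 and 3 such members. SMESG000066414.1 stood at 799, 4820, 135 and 223 CPM in these members of anterior 1, anterior 2, posterior 1 and posterior 2 and at 0, 5650, 3.95 and 22.8 CPM in matched cells, higher in members in 3 of 4 libraries and lower in anterior 2. Its log2 fold change was 1.86 with all 4 libraries (SE 0.26, edgeR adjusted *P* = 9.7e-11) and 3.61 without anterior 2 (SE 0.29, edgeR adjusted *P* = 3.2e-33). These members include the 34 of cluster 10. A further fit of the scattered members alone was not made.

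In the fit of members outside cluster 25, the first genes by the naming rule were SMESG000024844.1 and SMESG000023444.1, whose highest levels were in clusters 25 and 10. SMESG000024844.1 had 1, 4, 35 and 54 UMIs in members of anterior 1, anterior 2, posterior 1 and posterior 2 and 0, 1, 0 and 5 in matched cells, with a log2 fold change of 5.17 with all 4 libraries (SE 0.46, edgeR adjusted *P* = 6.7e-27) and 5.47 without anterior 2. In cluster 10 it stood at 377 CPM in members and 285 CPM in cells with 0 UMIs. In the scattered members it stood at 22.7 CPM, beside 2.63 CPM in cells of those clusters with 0 UMIs.

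Within clusters, fewer genes were called between members and their neighbors. When partners also had to come from the same cluster, 10, 13, 42 and 79 members of anterior 1, anterior 2, posterior 1 and posterior 2 found one. Of 4544 genes tested, 203 were higher in members (4.47%) and 11 lower (0.242%) by edgeR. Cluster 25 weighed more in the member sums than in the partner sums, as given below, so these calls are not all differences inside a cluster. The median log2 fold change of the higher genes was 0.92, against 1.41 in the comparison without clusters. That comparison tested 6555 genes over all 269 members, so the counts and sizes of the 2 are not strictly comparable. Without posterior 1 the counts were 43 higher and 9 lower of 1148 genes tested. Without posterior 2 they were 23 and 0 of 1159 (125 at an unadjusted *P* under 0.05). Without anterior 1 they were 190 and 24 of 7336, and without anterior 2 201 and 18 of 7281. DESeq2 called 67 and 1, with no adjusted *P* for 1234 of the 4544 genes. The first by the naming rule was SMESG000012656.1, at 682, 381, 142 and 128 CPM in members and 185, 207, 43.9 and 25.6 CPM in partners, a log2 fold change of 1.92 (SE 0.21, edgeR adjusted *P* = 7.4e-08). It was followed by SMESG000056345.1, with 217, 159, 58.5 and 57.4 CPM in members and 67.1, 128, 10.2 and 16.2 CPM in partners, a log2 fold change of 1.84 (SE 0.32, edgeR adjusted *P* = 0.00015). Both were higher in members in 4 of 4 libraries. Among the lower genes, SMESG000028260.1 had 2, 0, 4 and 28 UMIs in members and 6, 4, 54 and 271 in partners (log2 fold change -1.92, SE 0.27, edgeR adjusted *P* = 5.1e-06). Within cluster 25 alone it had 1, 0, 4 and 27 UMIs in members with partners and 6, 4, 53 and 268 in partners. All members of that cluster, with or without a partner, had 3, 0, 29 and 318. Against cells matched without clusters, all members had 352 UMIs of it and matched cells 7. The members with partners thus did not stand for all members. SMESG000023959.1 had 3, 4, 7 and 50 UMIs in members and 13, 15, 68 and 184 in partners (log2 fold change -0.82, SE 0.24, edgeR adjusted *P* = 0.033).

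Members of different clusters had unequal numbers of partners in these sums, and cluster 25 made up more of the member sum in each library. In posterior 2 it gave 114351 of 626841 UMIs of members and 133651 of 1600275 UMIs of partners. Genes of cluster 25 could thus be called without a difference inside it. SMESG000066414.1 was called in these sums (log2 fold change 0.89, SE 0.21, edgeR adjusted *P* = 0.0073). The comparison was therefore repeated in cluster 25 alone, after the data were seen, where 8, 10, 12 and 31 members were matched with 15, 22, 17 and 54 cells. Members stayed deeper than their partners there, with median totals of 3510 and 1955 UMIs in posterior 2. Of 737 genes tested, 14 were higher in members (1.9%) and 26 lower (3.53%). These counts were 3 and 13 of 870 genes without anterior 2 and 5 and 17 of 637 without posterior 1. DESeq2 called 4 and 7, with no adjusted *P* for 571 of the 737 genes. SMESG000066414.1 did not pass the test, at 20167, 25196, 30316 and 25457 CPM in members and 30584, 26887, 19405 and 15009 CPM in partners (log2 fold change 0.09, SE 0.20, edgeR adjusted *P* = 0.84).

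The genes that rose with *nrps* (gut) inside cluster 25 did so by small factors. SMESG000014979.1 stood at 1010, 797, 645 and 805 CPM in members and 298, 551, 417 and 262 CPM in partners (log2 fold change 1.06, SE 0.25, edgeR adjusted *P* = 0.0087). Over all cells of cluster 25 it stood at 350 CPM where *nrps* (gut) had 0 UMIs, 447 CPM where it had 1 or 2 and 720 CPM where it had 3 or more, and the order was the same in cluster 10, at 84.3, 108 and 144 CPM. These levels pool the libraries and include the cells that made the call, so they are descriptions only. The classes were not matched for depth. In cluster 25 the median total was 1223 UMIs in cells with 0 UMIs of *nrps* (gut) and 4988 in members. SMESG000012656.1 rose again, at 889, 478, 1104 and 691 CPM against 298, 298, 617 and 254 CPM (log2 fold change 1.06, SE 0.25, edgeR adjusted *P* = 0.008). Neither passed without posterior 2 (log2 fold changes 0.83 and 0.93, edgeR adjusted *P* = 0.11 and 0.074).

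A pair of genes was lower in the members of cluster 25 that had partners there than in these partners. SMESG000074187.1 stood at 162, 79.7, 1291 and 516 CPM in members of anterior 1, anterior 2, posterior 1 and posterior 2 and at 893, 253, 2140 and 4392 CPM in partners (log2 fold change -2.10, SE 0.29, edgeR adjusted *P* = 4.1e-06). SMESG000028261.1 stood at 80.8, 39.9, 583 and 227 CPM in members and 108, 68.9, 1378 and 1519 CPM in partners (log2 fold change -2.00, SE 0.31, edgeR adjusted *P* = 2.6e-05), with 2 and 1 UMIs in the anterior member sums. Both were lower in members in 4 of 4 libraries. Over all members of cluster 25, with or without a partner, SMESG000074187.1 stood at 134, 79.0, 1449 and 1134 CPM in the same order of libraries. SMESG000028261.1 stood at 80.6, 26.3, 254 and 642 CPM there. The members with partners thus did not stand for all members of the cluster. SMESG000074187.1 passed without each library in turn, with log2 fold changes of -3.03 without posterior 1 and -1.24 without posterior 2 (edgeR adjusted *P* = 7.6e-17 and 0.013). SMESG000028261.1 passed without either anterior library and fell under the filter on low counts without either posterior one. SMESG000074187.1 was at the same time nearly confined to cluster 25, at 1479 CPM over its cells, with the next cluster of at least 100 cells at 77.9 CPM.

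The posterior libraries held a larger share of members. It was 0.179% and 0.154% of cells in anterior 1 and anterior 2 and 0.624% and 0.870% in posterior 1 and posterior 2, a difference of 0.581 percentage points (exact permutation test, 2-sided, *P* = 0.333, the smallest that 2 libraries against 2 allow). Depth moved with this share, since posterior cells had more UMIs. The level of the gene summed over all cells was 28.1 CPM (25.2 to 31.4) and 32.4 CPM (29.9 to 35.0) in anterior 1 and anterior 2 and 28.8 CPM (27.4 to 30.3) and 34.1 CPM (32.7 to 35.4) in posterior 1 and posterior 2, so that the regions overlapped. After thinning to 1000 UMIs, 2.51%, 2.92%, 2.48% and 2.84% of cells had a UMI of the gene, and 2, 1, 5 and 15 cells had 3 or more.

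**Figure D4:**
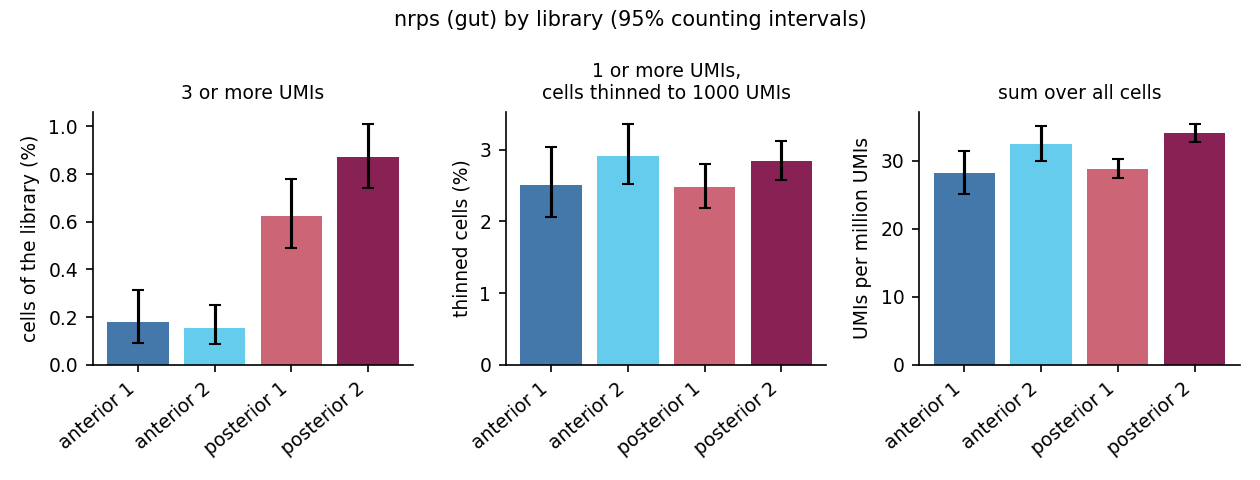
Share of cells with at least 3 UMIs of *nrps* (gut) (left, %), share with at least 1 UMI after thinning each cell to 1000 UMIs (middle, %) and level over all cells (right, CPM) in each library, with exact 95% counting intervals. The left share was 0.154% to 0.179% in anterior and 0.624% to 0.870% in posterior libraries, whereas the middle share (2.48% to 2.92%) and the level (28.1 to 34.1 CPM) overlapped between regions.

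Cluster 25 itself made up 0.863% and 1.24% of cells in the anterior libraries and 0.732% and 1.39% in the posterior ones, and cluster 10 2.07%, 3.26%, 3.13% and 2.54%. The ranges of the regions overlapped for both. The share of cells of cluster 25 that were members was 17.2% and 10.1% in anterior and 48.9% and 43.8% in posterior libraries, and after thinning 49.0%, 43.4%, 50% and 49.1% of its cells had at least 1 UMI of the gene.

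Posterior and anterior members were compared over the 4 member sums. Of 5841 genes tested, 17 were higher in posterior members (0.291%) and 4 lower (0.0685%) by edgeR, beside a median log2 fold change of 0.19 over all genes. Library sizes in place of TMM gave 13 higher and 0 lower (983 genes at an unadjusted *P* under 0.05). DESeq2 gave 51 and 57, with no adjusted *P* for 4529 of the 5841 genes. With 1 library left out, the lone library of a region was assumed to vary like the others. The genes tested then numbered 1082 without posterior 1, 1122 without posterior 2, 8583 without anterior 1 and 8597 without anterior 2. Their median log2 fold changes were -0.04, 0.0007, 0.54 and 0.48. The number of calls changed as well and is not comparable with that of the full fit. Depth differed between the regions, with medians of 3509 and 2693.5 UMIs in anterior and 7169 and 6012.5 UMIs in posterior members. With each member thinned to 1000 UMIs, edgeR called 0 higher and 0 lower genes (84 of 795 at an unadjusted *P* under 0.05), and for members with 5 or more UMIs 0 and 0 (80 of 1313). The genes named next are therefore calls of the unthinned sums only. The first by the naming rule was SMESG000036375.1, with 0 and 3 UMIs in anterior members and 1641 and 2124 in posterior ones, a ratio of levels of 60.1 over the pooled sums (exact 95% counting interval 20.5 to 291) and a fitted log2 fold change of 5.95 (SE 0.56, edgeR adjusted *P* = 0.0053). SMESG000061591.1 followed, with 1 and 0 UMIs against 237 and 339 (ratio 27.6, 4.93 to 1091, fitted log2 fold change 4.78, SE 0.74, edgeR adjusted *P* = 0.041). SMESG000024565.1 fell, from 492 and 383 CPM in anterior to 77.9 and 112 CPM in posterior members (log2 fold change -2.19, SE 0.35, edgeR adjusted *P* = 0.043). SMESG000003402.1 fell too, from 1542 and 1329 CPM to 544 and 419 CPM (log2 fold change -1.59, SE 0.24, edgeR adjusted *P* = 0.036). Without posterior 1, the adjusted *P* from edgeR was 0.077 for SMESG000061591.1 and 0.087 for each of the 2 genes that fell. After thinning, the adjusted *P* was 0.063 for SMESG000036375.1, 0.36 for SMESG000024565.1 and 0.20 for SMESG000003402.1. For members with 5 or more UMIs, SMESG000036375.1 had a log2 fold change of 2.25 (edgeR adjusted *P* = 0.80), SMESG000024565.1 of -2.06 (0.54) and SMESG000003402.1 of -0.31 (edgeR adjusted *P* = 0.996).

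The make-up of the members differed between the regions too, since anterior members lay almost wholly in clusters 25 and 10. Both genes that rose were lower in members of cluster 25 than in the scattered members. SMESG000036375.1 stood at 89.7 CPM in members of cluster 25 and at 4326 CPM in the scattered members, of which the anterior libraries held 1, and its highest level was in cluster 11. SMESG000061591.1 stood at 48.0 and 621 CPM. Both genes that fell had the reverse pattern, with SMESG000024565.1 at 221 and 12.6 CPM and SMESG000003402.1 at 992 and 7.57 CPM.

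Within cluster 25, few genes were called between the regions, in sums of 37280 and 38022 UMIs in anterior libraries. A fit of its members alone, added after the data were seen, called 1 of 2610 genes higher in posterior members (0.0383%) and 0 lower (0.0%), with 141 genes at an unadjusted *P* under 0.05 in either direction. DESeq2 called 2 higher and 0 lower. Without posterior 1 and without posterior 2, only 796 and 797 genes were tested, so the calls of those fits are not comparable with these. SMESG000066414.1 stood at 22643, 26411, 25485 and 22860 CPM in anterior 1, anterior 2, posterior 1 and posterior 2 (log2 fold change 0.05, SE 0.24, edgeR adjusted *P* = 0.99), whereas over all members the same gene had been at 18977 and 23284 CPM in anterior and 9409 and 12321 CPM in posterior libraries. SMESG000003402.1 stood at 1692, 1343, 1453 and 755 CPM (log2 fold change -0.42, SE 0.33, edgeR adjusted *P* = 0.94). SMESG000024565.1 still did not overlap between regions, at 591 and 395 CPM against 209 and 194 CPM, and did not pass the test (log2 fold change -1.22, SE 0.30, edgeR adjusted *P* = 0.88).

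The single gene called was SMESG000074187.1, one of the pair that was lower in members than in their partners within the cluster. It had 5 and 3 UMIs in anterior members and 354 and 724 in posterior ones, or 134 and 79.0 CPM against 1449 and 1134 CPM (log2 fold change 3.65, SE 0.35, edgeR adjusted *P* = 0.012). Over all members it was called as well, at 112 and 67.6 CPM against 538 and 610 CPM (log2 fold change 2.67, SE 0.39, edgeR adjusted *P* = 0.036), but not without posterior 1, after thinning or for members with 5 or more UMIs (edgeR adjusted *P* = 0.057, 0.063 and 0.54). Its partners in cluster 25 with 0 UMIs of *nrps* (gut) lay in the same order, at 893 and 253 CPM in anterior and 2140 and 4392 CPM in posterior libraries.

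**Figure D5:**
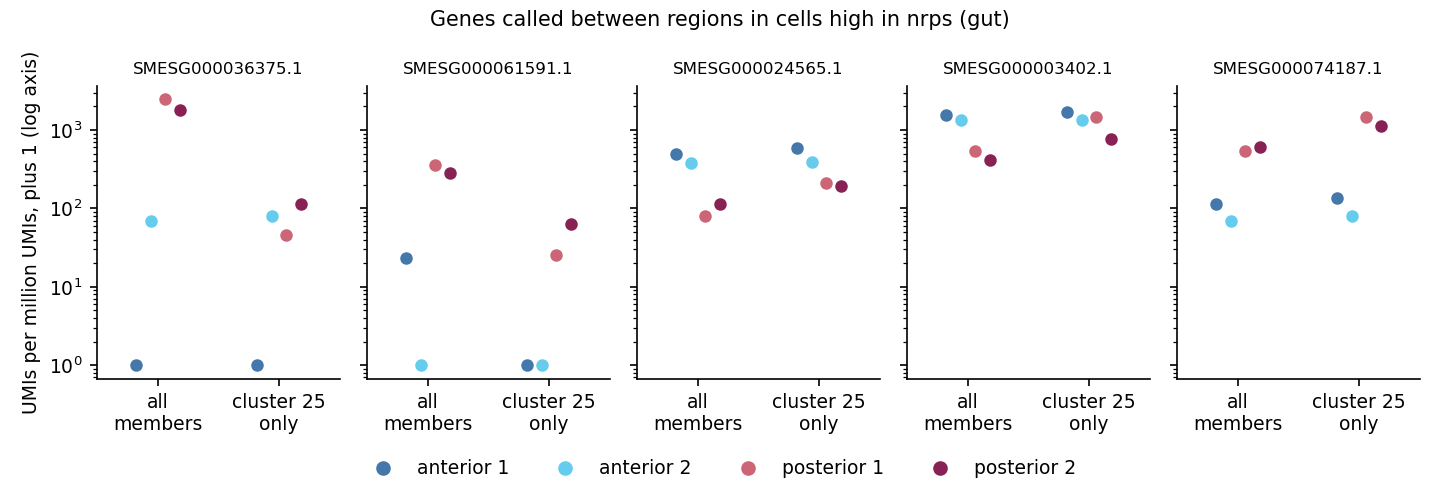
Levels in members (y axis, CPM plus 1, log axis) of the genes with the largest changes between regions, over all members and over members of cluster 25 only, 1 point per library. SMESG000036375.1 and SMESG000003402.1 separated the regions over all members but overlapped within cluster 25, whereas SMESG000074187.1 separated them in both, at 134 and 79.0 CPM against 1449 and 1134 CPM within the cluster.

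The regions were also set against their own matched cells, in a test of whether the difference between members and matched cells itself differed between regions. It called 154 of 8138 genes (1.89%), of which 151 had a higher contrast in posterior libraries, beside a median of 0.56 on the log2 scale over all genes tested. Of these 151 genes, 41 had 0 UMIs in both anterior member sums, which held 44739 and 44408 UMIs, so that no fold is given for them. Without posterior 2, edgeR called 0 genes, with 301 at an unadjusted *P* under 0.05. It called 41 without posterior 1, and 99 higher and 2 lower without anterior 2. DESeq2 called 70 genes over all 4 libraries, with no adjusted *P* for 6626 of the 8138.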

How the data were processed

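Single-cell RNA sequencing (10x Genomics) was performed on 2 anterior and 2 posterior libraries. The deposited values were raw UMI counts, 1 matrix of genes by cells per library, neither normalized nor pooled. The authors obtained them with Cell Ranger 5.0.0 against the genome of the sexual strain. For its own comparison of groups, the study aggregated the samples with Cell Ranger and normalized for sequencing depth. Groups followed the sample labels. All deposited barcodes were kept, and doublets were neither called nor removed. An alternative left out cells above the 95th percentile of total UMIs.

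Counts were scaled to 10000 per cell and clustered with scanpy 1.11.5 (3000 variable genes, 50 components, 20 neighbours, Leiden resolution 1.0), without *nrps* (gut), *nrps*, *LamA* and *klf4l*. Matched cells came from the same library, at most 3 per member. UMIs were summed per library and tested with edgeR 4.0.16 (quasi-likelihood, TMM, filter on low counts, Benjamini-Hochberg adjustment over all genes tested), with the library as a block for members against matched cells. The region difference of that contrast was an interaction term. Alternatives were library sizes, DESeq2 1.42.0, no filter, each library left out, other thresholds, matching rules and cluster resolutions, thinning and blocks. Fits of members inside and outside cluster 25, and their own alternatives, were added after the data were seen. Scripts were tested on simulated data, in which the comparisons between regions missed nearly all changes of the smaller planted size, so that few calls there do not show that the regions were alike.

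In each comparison the 2 genes with the largest change in each direction were named, among those called, with the same direction in every library (or regions that did not overlap) and at least 50 CPM in every sum of the higher group. For the region difference of the contrast, 50 CPM was required in all member sums and ratios were formed with 1 CPM added. *nrps*, *LamA* and *klf4l* were always named. The members, lists and tests were chosen with earlier results of these data known. The gene numbers of *LamA*, *klf4l* and *nrps* (gut) were taken from the transcript numbers that the study gives. Genes with near-identical copies or overlapping neighbours could not be identified here.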

Additional observations from a re-analysis of the deposited data

Results flagged for a closer look

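For 4 genes the difference between members and matched cells itself differed between regions by the interaction test in edgeR, and their values are given in the order anterior 1, anterior 2, posterior 1 and posterior 2. SMESG000077667.1 stood at 112, 135, 79.4 and 113 CPM in members and 82.0, 60.0, 2.0 and 4.19 CPM in matched cells, a posterior minus anterior difference of 4.10 on the log2 scale (SE 0.75, edgeR adjusted *P* = 1.5e-05). These values rested on 5, 6, 53 and 135 UMIs in members and 11, 8, 4 and 15 in matched cells. The member values overlapped between regions, and the matched values did not. At such counts, likeness of the members between regions was not shown. SMESG000016745.1 stood at 201, 67.6, 1660 and 1015 CPM in members and 1132, 2312, 1644 and 1508 CPM in matched cells (3.35, SE 0.39, edgeR adjusted *P* = 2.5e-14). Here the anterior members, with 9 and 3 UMIs, were low.

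The contrast was smaller in posterior libraries for SMESG000046675.1, at 447, 653, 207 and 182 CPM in members and 104, 82.6, 91.1 and 89.1 CPM in matched cells (-1.44, SE 0.42, edgeR adjusted *P* = 0.037). It was smaller too for SMESG000022047.1, at 894, 1148, 383 and 581 CPM against 96.9, 90.1, 113 and 128 CPM (-1.44, SE 0.37, edgeR adjusted *P* = 0.0099). Without posterior 2 none of the 4 passed (edgeR adjusted *P* = 0.78 for each). Both smaller contrasts also failed without each other library, with edgeR adjusted *P* of 0.12, 0.71 and 0.39 for SMESG000046675.1 and 0.14, 0.55 and 0.64 for SMESG000022047.1 without anterior 1, anterior 2 and posterior 1. In members of cluster 25 alone, SMESG000016745.1 and both smaller contrasts did not pass (edgeR adjusted *P* = 0.71, 0.90 and 0.77). The part of cluster make-up in these differences was not tested otherwise.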

How the results depend on the processing

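For members against matched cells, the number of higher genes moved from 1016 to 568 for members with 5 or more UMIs, 1961 against all cells with 0 UMIs and 158 for members outside cluster 25, with 338 to 1285 when 1 library was left out. The number of lower genes moved from 604 to 1028 with library sizes, 2268 without a filter, 1005 for members with 2 or more UMIs, 370 with 1 partner, 3684 against all cells with 0 UMIs, 1109 without cells above the 95th percentile, 311 without the library block, 938 in cluster 25 and 386 outside it, and was 93 to 1505 when 1 library was left out.

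Within clusters, higher genes moved from 203 to 67 with DESeq2 and 14 in cluster 25 (23 to 201 with 1 library left out), and lower genes from 11 to 19 with library sizes, 1 with DESeq2, 34 without a filter, 18 at resolution 2 and 26 in cluster 25 (0 to 24 with 1 library left out).

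Between regions, higher genes moved from 17 to 51 with DESeq2, 168 without a filter and 1 in cluster 25 (3 to 184 with 1 library left out), and lower genes from 4 to 0 with library sizes, 57 with DESeq2, 28 without a filter and 0 in cluster 25 (0 to 81 with 1 library left out). Members with 5 or more UMIs and thinned members gave 0 higher and 0 lower genes by edgeR, with 80 and 84 at an unadjusted *P* under 0.05. With the replicate number as a block the counts were 88 and 93. With 2 pairs the samples share only a number, and the labels do not state that it pairs them.

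The region difference of the contrast moved from 154 genes to 55 with library sizes, 70 with DESeq2 and 7 in cluster 25 (0 to 152 with 1 library left out). Genes per cell turned to 154.9 more in members outside cluster 25. The share of members in their leading cluster moved to 80.3% at resolution 0.5, 97.6% for 5 or more UMIs and 38.4% for 2 or more UMIs. For members outside cluster 25, 158 higher and 386 lower genes moved to 100 and 103 with all 4 libraries and to 45 and 186 with DESeq2. In cluster 25, 14 higher and 26 lower genes moved to 4 and 7 with DESeq2 (3 to 17 and 13 to 22 with 1 library left out), and between its regions 1 higher gene to 2 with DESeq2 (1 to 8 with 1 library left out). Of 225 alternative values of named genes, 180 kept direction and call, 42 lost the call and 3 turned, all 3 of SMESG000066414.1. In the comparison within clusters over all members, DESeq2 did not call SMESG000023959.1, SMESG000074187.1 and SMESG000028261.1 (adjusted *P* = 0.23, 0.49 and 0.90). SMESG000066414.1, which did not pass in either fit within cluster 25, had log2 fold changes from -0.13 to 0.38 against partners (0.09 with all libraries) and from -0.0049 to 0.25 between regions (0.05 with all libraries) when 1 library was left out. The causes were not tested. The anterior member sums, of 44739 and 44408 UMIs, limit every comparison between regions, since 3 UMIs there already correspond to 67.6 CPM in anterior 2.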
